A study of Mus musculus with 12 samples.

Results

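The expression of 9 genes was examined, all of them genes of bone morphogenetic protein (BMP) and transforming growth factor beta (TGF-β) signalling in the mouse colon: the ligands Bmp2, Bmp4, Bmp5 and Bmp7, the secreted BMP antagonists Grem1, Chrdl1 and Nog, the activin A subunit gene Inhba, and Tgfb1. They were taken by symbol from a table of 54532 genes, and all 9 passed the filter on low values that 24102 genes passed. RNA came from the whole colon of 12 C57BL/6N mice aged 6 to 8 weeks, with 1 library per mouse and 3 per group. Tmem173fl/fl mice (WT in the labels) carry floxed Tmem173, the gene of STING, without Cre. Tmem173iΔmye mice (CRE in the labels) are Tmem173fl/fl Lyz2-CreERT2 mice, in which a tamoxifen-inducible Cre driven by Lyz2 acts in myeloid cells, so colon cells of other lineages keep the gene. All mice of the 4 groups had received 5 tamoxifen injections. Colitic mice then drank dextran sulfate sodium (DSS) at 2.5% to 3% for 7 days and water for 1 day, and untreated mice drank water.

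BMP and TGF-β ligands are secreted dimers that signal through paired type I and type II receptor kinases to SMAD transcription factors. In the colon, mesenchymal cells around the crypt base secrete BMP antagonists such as Gremlin 1, which hold BMP signalling low near the stem cells, and BMP ligands act higher up, where epithelial cells differentiate. TGF-β1 and activin A are best known in injured tissue for their actions on matrix-producing fibroblasts and immune cells.

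In colitic Tmem173fl/fl mice 6 of the 9 genes rose, by 3.45-fold to 41.6-fold, where 22.5% of all tested genes were called. Grem1 and Inhba were also called in colitic Tmem173iΔmye mice, where 2.08% of all tested genes were. The Grem1 call was made in each of the 6 fits without 1 library. That of Inhba was lost without any 1 untreated Tmem173iΔmye library and with another test (limma). The fits that lost it called 0.212% to 0.299% of all tested genes. Bmp4, Bmp7 and Inhba fell in colitic Tmem173iΔmye mice against colitic Tmem173fl/fl mice, by 3.54-fold, 5.85-fold and 7.43-fold, in a comparison that called 2.81% of all tested genes. All 3 calls were lost without colitic Tmem173fl/fl replicate 1 or 3 or colitic Tmem173iΔmye replicate 2, and with limma. In those fits 0.112% to 0.581% of all tested genes were called. None of the 9 differed by the test between the untreated genotypes.

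Promoter sequence is shown for a gene called in both genotypes with DSS (Grem1) and the gene with the largest fold change of the 9 (Inhba). It is also shown for Bmp4, a ligand whose DSS response differed between genotypes by the test over all 12 libraries. That call was made in 3 of the 12 fits that left out 1 library. Each line gives the 250 bases before the transcription start from RefSeq on GRCm38.p6, 5′ to 3′ on the gene's strand. Capitals mark matches to 6 motifs searched on both strands: AP-1 (TGANTCA), the cyclic AMP response element (TGACGTCA), a SMAD element (CAGAC), a GC-rich BMP-SMAD element (GGCGCC), the TATA box (TATAAA) and the GC box (GGGCGG). No marked match overlapped another.
Grem1: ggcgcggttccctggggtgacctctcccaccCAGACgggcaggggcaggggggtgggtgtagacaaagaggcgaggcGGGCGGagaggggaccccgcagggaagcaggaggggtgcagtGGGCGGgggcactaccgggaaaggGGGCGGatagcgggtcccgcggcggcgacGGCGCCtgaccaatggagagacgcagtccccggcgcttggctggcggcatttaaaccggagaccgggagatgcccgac
Inhba: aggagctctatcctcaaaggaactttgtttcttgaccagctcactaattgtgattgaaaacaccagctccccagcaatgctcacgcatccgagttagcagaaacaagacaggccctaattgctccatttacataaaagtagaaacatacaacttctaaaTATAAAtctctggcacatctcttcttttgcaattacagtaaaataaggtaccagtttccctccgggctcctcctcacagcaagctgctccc
Bmp4: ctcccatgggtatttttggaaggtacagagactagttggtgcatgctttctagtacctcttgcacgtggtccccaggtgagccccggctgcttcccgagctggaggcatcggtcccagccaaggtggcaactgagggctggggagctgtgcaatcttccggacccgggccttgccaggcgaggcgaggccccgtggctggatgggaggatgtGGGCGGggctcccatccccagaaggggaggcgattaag

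The Grem1 window lies at chr2:113758649-113758898 on the minus strand, the Inhba window at chr13:16011601-16011850 on the plus strand and the Bmp4 window at chr14:46390670-46390919 on the minus strand. The Grem1 window was 72.0% G or C and held 3 GC boxes, 1 GGCGCC and 1 CAGAC. The Inhba window was 43.2% G or C and held a TATAAA whose first base lay 91 bases before the start. The Bmp4 window was 63.2% G or C, with 1 GC box 38 bases before the start. Among windows of the same length from 32851 RefSeq promoters, 32.7% held a GC box, 42.2% a CAGAC, 12.4% a TATAAA, 9.59% a GGCGCC, 6.75% an AP-1 and 1.55% a cyclic AMP element, and the median G or C content was 52.4%. Of the other members, Bmp5 (42.8% G or C, with 1 CAGAC) and Tgfb1 (75.2%, with 5 GC boxes) also had an entry. Bmp2, Bmp7, Chrdl1 and Nog were not matched by symbol in the set of RefSeq promoters used. These matches are a description of letters in the windows; members that moved together did not share 1 base composition.

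Library totals ran from 13823237 to 18718915 counts. By Xist and 4 Y-linked genes, 3 libraries were of female pattern (untreated Tmem173fl/fl replicate 3, untreated Tmem173iΔmye replicate 3 and colitic Tmem173iΔmye replicate 5) and the others of male pattern. Summed FPKM (fragments per kilobase of gene, scaled to library size) of 8 pancreas acinar genes exceeded 1000 in 5 libraries: untreated Tmem173fl/fl replicate 3, untreated Tmem173iΔmye replicate 2, colitic Tmem173fl/fl replicates 1 and 2, and colitic Tmem173iΔmye replicate 1. The colon markers were present: the 9 epithelial and 8 smooth muscle markers each exceeded 1 FPKM in every library. As a check of the labels, Tmem173 measured 20.6 ± 5.46 CPM (TMM-scaled counts relative to the library total; SD, n = 3) in untreated Tmem173fl/fl and 17.7 ± 3.40 CPM in untreated Tmem173iΔmye mice. In colitic mice it measured 41.4 ± 3.30 and 34.2 ± 12.3 CPM, an edgeR log2 difference of -0.28 (SE 0.26, adjusted p = 0.602). Colitic Tmem173iΔmye replicate 1, at 47.8 CPM, was above the colitic Tmem173fl/fl range of 37.7 to 44.0 CPM. A count over the whole gene does not isolate the floxed exons. Lyz2, whose locus drives the Cre, was at 193 ± 72.8 and 95.2 ± 19.2 CPM in untreated Tmem173fl/fl and Tmem173iΔmye mice, and these groups did not overlap. The log2 difference of Lyz2 was -1.01 (SE 0.23, unadjusted p = 0.000754) and did not pass the edgeR test over all genes (adjusted p = 1.0). Over the alternatives its adjusted p ran from 0.000146, in edgeR without the filter on low values, to 1.0.

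Levels can be compared between genes only per length, in FPKM. In untreated Tmem173fl/fl mice Bmp2 (mean 21.2 FPKM) and Grem1 (17.3 FPKM) were highest, and their ranges overlapped. Bmp4 followed at 8.18 FPKM and Tgfb1 at 4.57 FPKM, each clear of its neighbours in that order. Bmp5, Chrdl1 and Bmp7 lay between 2.02 and 2.39 FPKM with overlapping ranges. Nog, at 0.984 FPKM, and Inhba, at 0.457 FPKM, were lowest. In untreated Tmem173iΔmye mice Grem1 and Bmp2 stood at 18.5 and 18.2 FPKM, again with overlapping ranges, and the rest of the order was that of Tmem173fl/fl mice. In colitic Tmem173fl/fl mice Grem1 reached 229 FPKM, and the next gene, Bmp2, 33.4 FPKM. Bmp2, Bmp4, Bmp7, Inhba and Tgfb1 then formed a run of means from 33.4 down to 15.6 FPKM in which every neighbouring pair overlapped. Bmp5 (8.23 FPKM), Chrdl1 (3.14 FPKM) and Nog (1.75 FPKM) came below them. In colitic Tmem173iΔmye mice Grem1 (117 FPKM), Bmp2 (17.8 FPKM) and Bmp4 (8.28 FPKM) led, and from Bmp4 to Nog (1.28 FPKM) every neighbouring pair overlapped.

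**Figure D1:**
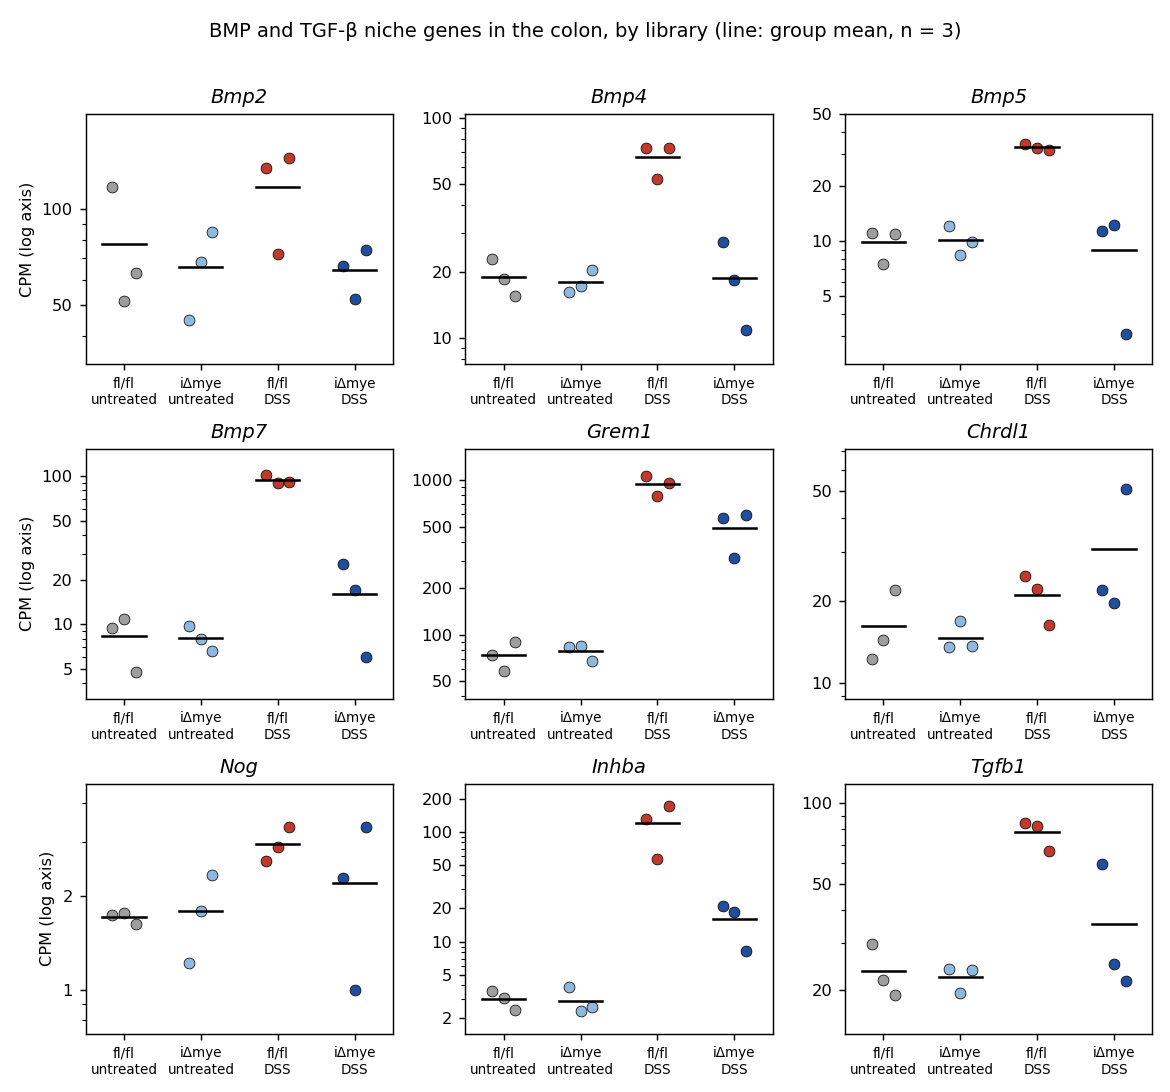
CPM (log axis) of the 9 genes in each library, for untreated and DSS-treated Tmem173fl/fl (fl/fl) and Tmem173iΔmye (iΔmye) mice; points are libraries and lines are means of 3. The colitic Tmem173fl/fl points of Bmp4, Bmp5, Bmp7, Grem1, Inhba and Tgfb1 lie above all untreated points, and the colitic Tmem173iΔmye points of Bmp5, Bmp7, Chrdl1, Nog and Tgfb1 are widely spread.

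The DSS response in Tmem173fl/fl mice was examined first. A gene was called where the edgeR adjusted p over all tested genes was under 0.05 and the absolute log2 fold change was at least 1. The test called 22.5% of all tested genes, 14.9% higher and 7.61% lower. Of the 9 members 6 were called, all higher, and the median log2 fold change was 1.799 over the members and 0.03 over all tested genes. In 7 members every colitic library lay above every untreated library, a pattern that 23.9% of all tested genes showed in that direction.

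Grem1, the antagonist that binds BMP2 and BMP4, counted 73.6, 57.7 and 89.1 CPM in the untreated and 1064, 794 and 959 CPM in the colitic Tmem173fl/fl libraries. The lowest colitic library was thus far above the highest untreated one. The log2 fold change was 3.74 (SE 0.22, edgeR adjusted p = 2.11e-06). Chrdl1, which encodes Chordin-like 1, had 12.3, 14.4 and 21.9 CPM before and 24.5, 22.1 and 16.3 CPM with DSS. These ranges overlapped, and the log2 difference of 0.44 (SE 0.25) did not pass the test (edgeR adjusted p = 0.205). Nog, which encodes Noggin, counted 1.74, 1.76 and 1.63 CPM untreated and 2.60, 2.89 and 3.34 CPM with DSS. The Nog groups did not overlap, and its log2 difference of 0.85 (SE 0.29, edgeR adjusted p = 0.0478) was under the fold limit. Without 1 library at a time, the adjusted p of Nog ran from 0.0818 to 0.135.

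Among the BMP ligands, Bmp7 counted 9.39, 10.8 and 4.76 CPM in untreated and 101, 89.2 and 91.0 CPM in colitic Tmem173fl/fl libraries. The colitic libraries were close to each other and all above the untreated ones, and the change was 3.57 on the log2 scale (SE 0.26, edgeR adjusted p = 7.25e-06). Bmp4, a ligand of subepithelial mesenchyme, went from 22.7, 18.4 and 15.5 CPM to 73.0, 52.8 and 72.7 CPM, which is 1.88 on the log2 scale (SE 0.19, edgeR adjusted p = 4.78e-05). Bmp5, a ligand of the same subfamily as Bmp7, went from 11.1, 7.51 and 10.96 CPM to 34.2, 32.4 and 31.7 CPM, which is 1.799 on the log2 scale (SE 0.19, edgeR adjusted p = 7.20e-05). Neither Bmp4 nor Bmp5 had overlapping groups. Bmp2, which is also made by differentiated epithelium, counted 118, 51.6 and 63.2 CPM untreated and 135, 72.4 and 145 CPM with DSS. The highest untreated library was thus within the colitic range, and the log2 difference of 0.67 (SE 0.32) did not pass the test (edgeR adjusted p = 0.142). Without untreated Tmem173fl/fl replicate 1, the library at 118 CPM, Bmp2 was called at 1.10 on the log2 scale (edgeR adjusted p = 0.0196). Its log2 difference was 0.44 (edgeR adjusted p = 0.364) without untreated Tmem173fl/fl replicate 2.

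Inhba encodes the βA subunit, which forms activin A as a dimer. It counted 3.56, 3.05 and 2.38 CPM in untreated and 129, 56.6 and 170 CPM in colitic Tmem173fl/fl libraries. The groups were far apart, although the colitic libraries differed among themselves. The log2 fold change was 5.38 (SE 0.40, edgeR adjusted p = 8.58e-06). Tgfb1, which encodes the ligand TGF-β1, counted 29.9, 21.8 and 19.3 CPM untreated and 84.6, 82.6 and 66.1 CPM with DSS. Its groups did not overlap, and the log2 fold change was 1.79 (SE 0.18, edgeR adjusted p = 6.17e-05). The calls of Grem1, Bmp4, Bmp5, Bmp7, Inhba and Tgfb1 were made in each of the 6 fits that left out 1 library.

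The untreated genotypes were compared to see whether the members differed before injury. No member was called, and 0.0% of all tested genes were. No gene of the 24102 passed the edgeR test, 720 had an unadjusted p under 0.05, and DESeq2 called 3 and limma 0 genes. edgeR without the filter on low values called 68 genes, and DESeq2 at the study's threshold (unadjusted p) 174, none of them a member. That threshold is the one in the study's methods, while the legend of its volcano plot gives an adjusted p under 0.05. No member had groups without overlap, a pattern seen in 3.66% of tested genes on the higher and 3.68% on the lower side. The log2 differences of the 9 members ran from -0.22 (Bmp2, SE 0.28) to 0.10 (Grem1, SE 0.18), with edgeR adjusted p = 1.0 for each. Untreated Tmem173iΔmye libraries counted 82.7, 85.0 and 67.9 CPM of Grem1 and 3.82, 2.34 and 2.52 CPM of Inhba. Their ranges overlapped those of the untreated Tmem173fl/fl libraries.

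The DSS response was then examined in Tmem173iΔmye mice. The edgeR test called 2.08% of all tested genes, and 2 of the 9 members, Grem1 and Inhba, both higher. Among all tested genes 1.48% were called higher and 0.597% lower. The median log2 fold change was 0.65 over the members and 0.02 over all tested genes. Colitic and untreated groups did not overlap in 3 members, Grem1, Inhba and Chrdl1, all higher with DSS, as did 12.1% of all tested genes, and 9.41% were separated the other way. This comparison and that in Tmem173fl/fl mice share no library.

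Grem1 counted 566, 312 and 591 CPM in the colitic Tmem173iΔmye libraries, all above the untreated ones. The log2 fold change was 2.64 (SE 0.27, edgeR adjusted p = 0.00166), and the call was made in each of the 6 fits without 1 library. Inhba counted 21.2, 18.6 and 8.26 CPM with DSS, also above every untreated library. Its log2 fold change was 2.46 (SE 0.40, edgeR adjusted p = 0.0147). The call of Inhba was lost without untreated Tmem173iΔmye replicate 1 (edgeR adjusted p = 0.0854), replicate 2 (0.124) or replicate 3 (0.121), and with limma (limma adjusted p = 0.109). Calls over all tested genes fell as well, from 2.08% to 0.299%, 0.212% and 0.236% without these libraries and to 0.257% with limma. They fell to 0.988% without colitic Tmem173iΔmye replicate 1 and rose to 6.10% without replicate 5. With only the libraries of low pancreas marker level, 2 against 2, edgeR called 0 of all tested genes, and the log2 differences of Grem1 and Inhba were 2.58 (adjusted p = 0.212) and 2.08 (adjusted p = 0.331).

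The remaining members did not pass the test in Tmem173iΔmye mice. Bmp7 went from 9.71, 7.96 and 6.61 CPM to 25.4, 16.9 and 6.01 CPM, with a log2 difference of 0.99 (SE 0.44, edgeR adjusted p = 0.318). The 6.01 CPM came from colitic replicate 5, the colitic library of female pattern, and was below every untreated library. Without it the log2 difference was 1.42 and called (edgeR adjusted p = 0.0118). The log2 difference of Bmp7 was 0.50 (edgeR adjusted p = 0.696) without colitic replicate 1. Tgfb1 went from 23.97, 19.6 and 23.9 CPM to 59.4, 25.1 and 21.6 CPM, so that 1 colitic library stood apart, and the log2 difference was 0.65 (SE 0.35, edgeR adjusted p = 0.423). That library was replicate 1, and without it the log2 difference of Tgfb1 was 0.05 (edgeR adjusted p = 0.954). Bmp4 (16.1, 17.2 and 20.3 CPM untreated; 27.2, 18.4 and 10.9 CPM with DSS) had a log2 difference of 0.07 (SE 0.32, edgeR adjusted p = 0.949). The spread of Bmp4 was wider with DSS, and the colitic range enclosed the untreated one. Bmp5 (12.1, 8.44 and 9.92 CPM untreated) counted 11.3, 12.3 and 3.10 CPM with DSS, with a log2 difference of -0.19 (SE 0.45, edgeR adjusted p = 0.883). Its lowest value was again in replicate 5.

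Bmp2 counted 45.0, 68.3 and 84.5 CPM in untreated and 66.2, 52.1 and 74.2 CPM in colitic Tmem173iΔmye libraries, a log2 difference of -0.04 (SE 0.25, edgeR adjusted p = 0.964). The Chrdl1 libraries counted 13.5, 16.8 and 13.7 CPM untreated and 21.9, 19.7 and 51.2 CPM with DSS. The groups did not overlap, and the highest value came from replicate 5. The log2 difference of Chrdl1 was 1.07 (SE 0.35, edgeR adjusted p = 0.170), and 0.53 (edgeR adjusted p = 0.215) without replicate 5. DESeq2 called it over all 6 libraries (1.07, adjusted p = 0.0437). Nog stayed between 0.996 and 3.34 CPM in all 6 libraries, with a log2 difference of 0.30 (SE 0.50, edgeR adjusted p = 0.829).

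**Figure D2:**
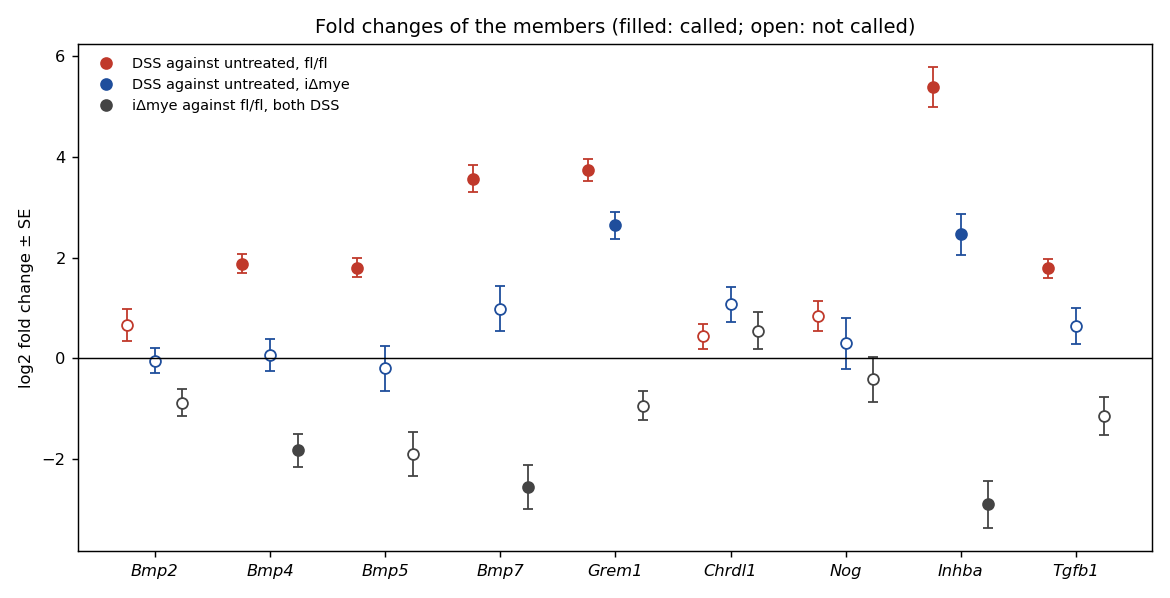
Log2 fold change with its standard error for each gene and comparison, each from a separate edgeR fit with 3 libraries per group; filled points passed the test and open points did not. DSS calls number 6 in Tmem173fl/fl and 2 in Tmem173iΔmye mice, and 3 genes (Bmp4, Bmp7 and Inhba) were called lower in Tmem173iΔmye than in Tmem173fl/fl mice when all had DSS.

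Colitic mice of both genotypes were compared directly, to see how the members differed between them after DSS. This comparison shares its colitic libraries with the DSS comparisons above. edgeR called 2.81% of all tested genes, 0.822% higher and 1.99% lower in Tmem173iΔmye mice, and 3 of the 9 members, all lower. The median log2 difference was -1.14 over the members and 0.02 over all tested genes. In 6 members (Bmp4, Bmp5, Bmp7, Grem1, Inhba and Tgfb1) every colitic Tmem173iΔmye library was below every colitic Tmem173fl/fl library, as for 14.8% of all tested genes.

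Inhba was 7.43-fold lower, with 21.2 CPM in its highest colitic Tmem173iΔmye library and 56.6 CPM in its lowest colitic Tmem173fl/fl library (log2 difference -2.89, SE 0.46, edgeR adjusted p = 0.0219). Bmp7 was 5.85-fold lower, with corresponding values of 25.4 and 89.2 CPM (log2 difference -2.55, SE 0.44, edgeR adjusted p = 0.0267). Bmp4 was 3.54-fold lower, with 27.2 and 52.8 CPM (log2 difference -1.82, SE 0.32, edgeR adjusted p = 0.0284). All 3 calls were lost without colitic Tmem173fl/fl replicate 1 (edgeR adjusted p = 0.0787 for Inhba, 0.0930 for Bmp7 and 0.120 for Bmp4), replicate 3 (0.0574, 0.0614 and 0.0746) or colitic Tmem173iΔmye replicate 2 (0.0838, 0.1003 and 0.107). Those of Bmp7 and Bmp4 were also lost without colitic Tmem173fl/fl replicate 2 (0.0571 and 0.0517). Calls over all tested genes fell too, from 2.81% to 0.112%, 0.510% and 0.191% without colitic Tmem173fl/fl replicate 1, replicate 3 and colitic Tmem173iΔmye replicate 2, and to 0.846% without colitic Tmem173fl/fl replicate 2, while 6.61% were called without colitic Tmem173iΔmye replicate 1. With limma, which called 0.581% of all tested genes, all 3 calls were lost (limma adjusted p = 0.0705 for Inhba, 0.0696 for Bmp7 and 0.0705 for Bmp4). The direction was the same in each of these fits. With the 3 libraries of low pancreas marker level, 1 of them Tmem173fl/fl, no gene at all was called, and the log2 differences of Inhba, Bmp7 and Bmp4 were -3.66, -2.99 and -2.32 (adjusted p = 0.475, 0.482 and 0.475).

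Bmp5 was 3.71-fold lower (log2 difference -1.89, SE 0.44) and did not pass the test (edgeR adjusted p = 0.0583). It was called with DESeq2 (adjusted p = 0.000883), with edgeR without the filter on low values (0.0109) and in 1 edgeR fit of all 12 libraries (0.00776), and not with limma (0.114). Without replicate 5 of colitic Tmem173iΔmye mice, where it counted 3.10 CPM, the log2 difference was -1.48 and called (edgeR adjusted p = 0.0135). Tgfb1 differed by -1.14 (SE 0.37, edgeR adjusted p = 0.133), and was called with DESeq2 (adjusted p = 0.0394) and in the edgeR fit of all 12 libraries (0.0347). Without colitic Tmem173iΔmye replicate 1, its highest library of that group at 59.4 CPM, Tgfb1 was called at -1.76 (edgeR adjusted p = 0.0125). Grem1 differed by -0.94 (SE 0.29, edgeR adjusted p = 0.116) and Bmp2 by -0.87 (SE 0.28, edgeR adjusted p = 0.126). Neither passed the test, although the Grem1 groups did not overlap. Nog differed by -0.42 (SE 0.45, edgeR adjusted p = 0.648), and by -0.85 to -0.06 without 1 library at a time. Chrdl1 was the only member with a higher mean in colitic Tmem173iΔmye mice (log2 difference 0.55, SE 0.37, edgeR adjusted p = 0.445), and it differed by -0.03 without replicate 5.

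Whether the DSS response itself differed between genotypes was tested as an interaction over all 12 libraries. edgeR called 2.55% of all tested genes, 1.61% with a smaller or more negative response and 0.934% with the opposite in Tmem173iΔmye mice, and 3 of the 9 members, all lower. The median interaction was -1.07 over the members and 0.04 over all tested genes. The interaction was -2.84 for Inhba (SE 0.58, edgeR adjusted p = 0.0207), -2.51 for Bmp7 (SE 0.57, adjusted p = 0.0337) and -1.74 for Bmp4 (SE 0.39, adjusted p = 0.0324), on the log2 scale. Over all tested genes, 1.11% to 7.17% were called without 1 library at a time, the highest share without colitic Tmem173iΔmye replicate 1 and the others up to 2.34%. The call of Inhba was lost without untreated Tmem173fl/fl replicate 2 or 3 or untreated Tmem173iΔmye replicate 1, with adjusted p up to 0.0635. For Bmp4 the call was lost without any 1 of the 6 untreated libraries, colitic Tmem173fl/fl replicate 1 or 3 or colitic Tmem173iΔmye replicate 2 (adjusted p up to 0.0843). For Bmp7 it was lost without any 1 of the 6 untreated libraries, colitic Tmem173fl/fl replicate 1 or 2 or colitic Tmem173iΔmye replicate 2 (adjusted p up to 0.0797). With only the libraries of male pattern, Inhba (adjusted p = 0.0978) and Bmp4 (0.120) were not called. The libraries of low pancreas marker level held 1 colitic Tmem173fl/fl library. With them the interaction was -3.68 for Inhba, -2.75 for Bmp7 and -2.21 for Bmp4. The direction stayed negative in all of these fits.

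Grem1 had an interaction of -1.03 (SE 0.34, edgeR adjusted p = 0.124), which did not pass the test. It was called with DESeq2 (-1.07, adjusted p = 0.0381) and with edgeR without the filter on low values (-1.09, adjusted p = 0.0453). Bmp5 had an interaction of -1.92 (SE 0.53, edgeR adjusted p = 0.0691), which was called without colitic Tmem173iΔmye replicate 1 (0.0318) or replicate 5 (0.0185). It was also called with DESeq2 (-1.96, adjusted p = 0.00711) and with edgeR without the filter on low values (-1.99, adjusted p = 0.00733), and not with limma (adjusted p = 0.0884). Tgfb1 had one of -1.07 (SE 0.44, edgeR adjusted p = 0.220), which was called without colitic Tmem173iΔmye replicate 1 (0.00434). The values of Bmp2 (-0.64, SE 0.46), Nog (-0.47, SE 0.58) and Chrdl1 (0.70, SE 0.47) did not pass the test either. In that order they ran from -1.07 to -0.41, -0.93 to -0.12 and 0.11 to 0.95 without 1 library at a time.

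To set ligands beside antagonists, FPKM was summed per library, over the members alone. The 4 BMP ligands together measured 24.6 to 46.9 FPKM in untreated libraries, 74.6 to 105 FPKM in colitic Tmem173fl/fl and 27.3 to 39.8 FPKM in colitic Tmem173iΔmye libraries. Grem1, Chrdl1 and Nog together measured 16.6 to 25.2 FPKM untreated, 198 to 264 FPKM in colitic Tmem173fl/fl and 77.7 to 148 FPKM in colitic Tmem173iΔmye libraries. The ratio of antagonist to ligand FPKM was thus 0.426 to 0.899 in the 6 untreated libraries. It was 2.52, 2.65 and 2.27 in the colitic Tmem173fl/fl libraries and 3.54, 2.62 and 5.43 in the colitic Tmem173iΔmye libraries, and the colitic ranges overlapped. Grem1 made up 81.4% to 88.0% of the antagonist FPKM in untreated, 97.5% to 98.1% in colitic Tmem173fl/fl and 93.7% to 96.7% in colitic Tmem173iΔmye libraries. Among the ligands, Bmp2 made up 50.1% to 68.5% untreated and 27.5% to 39.3% in colitic Tmem173fl/fl libraries, and 46.8%, 48.7% and 74.6% in colitic Tmem173iΔmye libraries. These sums of transcript levels were not tested, and they do not measure protein.

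**Figure D3:**
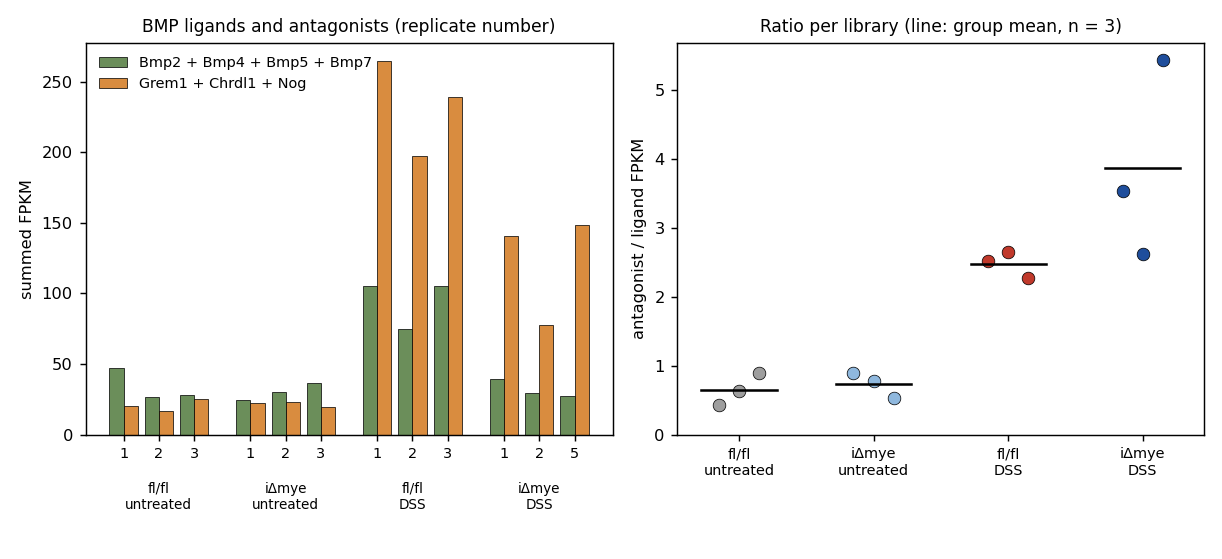
Left, summed FPKM of the ligands Bmp2, Bmp4, Bmp5 and Bmp7 (green) and the antagonists Grem1, Chrdl1 and Nog (orange) in each library, by replicate number. Right, their ratio per library with the mean of 3 as a line. These antagonists exceed these ligands in the 6 colitic libraries and not in the 6 untreated ones. The highest ratio, 5.43, is that of colitic Tmem173iΔmye replicate 5.

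Several lists of cell type markers moved with the members, and others did not. In bulk tissue, fewer cells of a type and less RNA per cell cannot be told apart. The summed FPKM of 10 fibroblast markers, which mark the main source of several of these signals, was 175 to 209 in untreated libraries. It was 1070 to 1239 in colitic Tmem173fl/fl and 339 to 469 in colitic Tmem173iΔmye libraries. With DSS 9 of the 10 markers were called higher in Tmem173fl/fl and 2 in Tmem173iΔmye mice, and 5 were called lower between colitic genotypes, in Tmem173iΔmye mice. Among all tested genes these shares were 14.9%, 1.48% and 1.99%. The interaction was called lower in 4 of the 10 fibroblast markers (median -1.11), against 1.61% of all tested genes. Among them were Dcn (-1.91) and Col3a1 (-1.78), each called in all 12 fits without 1 library. The 9 monocyte and macrophage markers summed to 197 to 364 FPKM untreated, 694 to 922 in colitic Tmem173fl/fl and 444 to 582 in colitic Tmem173iΔmye libraries. The 9 epithelial markers went the other way, at 5852 to 7579, 2189 to 3852 and 4748 to 5640 FPKM. Endothelial markers (14.2 to 20.02, 60.4 to 92.6 and 27.1 to 47.7 FPKM) and neutrophil markers (44.1 to 106, 569 to 940 and 233 to 326 FPKM) followed the order of the fibroblast markers, and smooth muscle markers (1033 to 1521, 966 to 1133 and 862 to 1209 FPKM) did not. Enteric neuron and glia markers (16.0 to 21.3, 55.2 to 64.4 and 28.7 to 41.5 FPKM) followed the order of the fibroblast markers, and 8 of the 9 were called higher with DSS in Tmem173fl/fl mice. Of the 6 red blood cell markers, 5 were called higher with DSS in Tmem173fl/fl mice and 5 lower between colitic genotypes (5.04 to 74.0, 191.5 to 406 and 29.5 to 35.7 FPKM), and 4 had a called interaction, as did 1.61% of all tested genes in that direction. None of the 6 T cell or 5 B cell markers was called in any comparison. T cell markers summed to 16.1 to 40.9 FPKM untreated, 14.4 to 31.8 in colitic Tmem173fl/fl and 7.90 to 36.5 in colitic Tmem173iΔmye libraries, and B cell markers to 179 to 281, 148 to 476 and 104 to 446 FPKM. No marker of these lists was at 0 in every library. Their part in the members' differences was not tested.

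Per 1000 FPKM of fibroblast markers, Grem1 was at 77.2 to 110 FPKM in untreated, 180 to 219 in colitic Tmem173fl/fl and 219 to 335 in colitic Tmem173iΔmye libraries. On this scale Grem1 was higher in all 6 colitic libraries than in any untreated one. Bmp7 was at 5.61 to 14.96 untreated, 20.5 to 21.5 in colitic Tmem173fl/fl and 3.51 to 13.4 in colitic Tmem173iΔmye libraries. Inhba was at 1.76 to 2.92, 8.34 to 25.2 and 3.03 to 8.48, so that each colitic library was above each untreated one and the colitic ranges overlapped. Bmp4 was at 32.6 to 53.0, 22.1 to 30.7 and 11.4 to 25.7, and Bmp5 at 10.4 to 14.5, 6.94 to 7.57 and 1.81 to 8.92. Relative to fibroblast markers, Bmp4 and Bmp5 were thus lower in every colitic library than in any untreated one. Bmp2 was likewise at 60.8 to 173 untreated and 19.2 to 49.0 in colitic libraries. Tgfb1 was at 18.1 to 31.1 untreated, 12.45 to 15.4 in colitic Tmem173fl/fl and 10.1 to 25.04 in colitic Tmem173iΔmye libraries. Chrdl1 was at 9.52 to 15.4, 2.29 to 3.08 and 6.88 to 17.8, and Nog at 3.44 to 6.52, 1.25 to 1.87 and 1.71 to 4.62. For Tgfb1, Chrdl1 and Nog the colitic Tmem173fl/fl libraries were thus below every untreated library, and the colitic Tmem173iΔmye range overlapped the untreated one. Such ratios describe these libraries and were not tested.

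**Figure D4:**
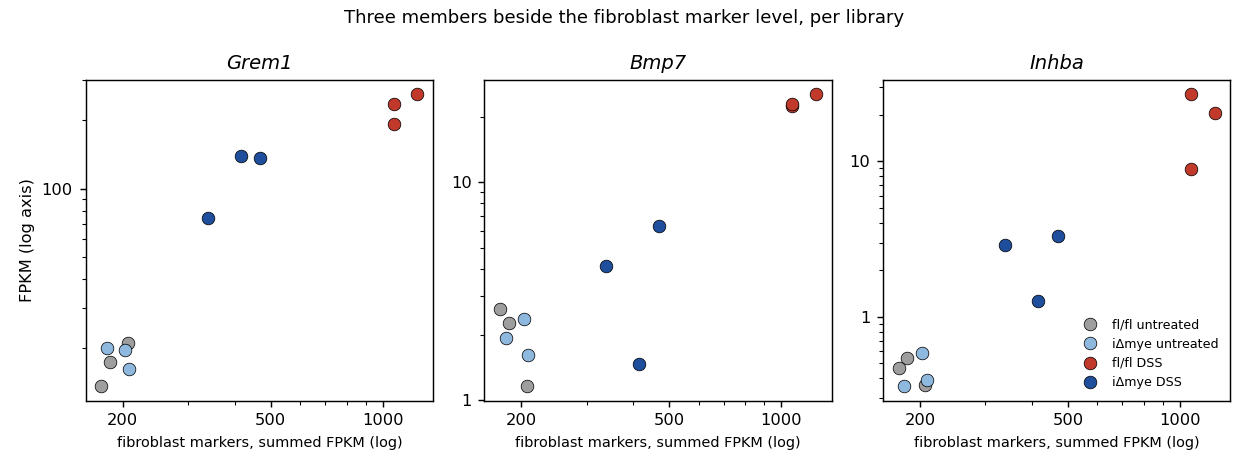
FPKM of Grem1, Bmp7 and Inhba (log axis) against the summed FPKM of 10 fibroblast markers (log axis); each point is a library, coloured by group. Untreated libraries lie at 175 to 209 on the horizontal axis, colitic Tmem173iΔmye at 339 to 469 and colitic Tmem173fl/fl at 1070 to 1239.

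For each member, the genes with the most similar profile over the 12 libraries were sought among 14549 genes by Pearson's r of log2(CPM + 1). The 12 points share the large DSS difference, so a high r is a description only. Grem1 was closest to Abcc9 (r = 0.993), a potassium channel subunit gene, then Prune2 and Igfbp5. Inhba was closest to Ptx3 (r = 0.992), which encodes the secreted pentraxin 3, then to Il1rl1, the interleukin-33 receptor gene, and Il11. Bmp7 was closest to Tbx3 (r = 0.988), a T-box transcription factor gene, Bmp4 to Zfp777 (r = 0.983), Tgfb1 to Plxnd1 (r = 0.992) and Bmp5 to Tmem204 (r = 0.952). Chrdl1 was closest to Scoc (r = 0.946), Nog to Snapc2 (r = 0.903) and Bmp2 to Adrm1 (r = 0.855), lower values than for the members that were called.

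Other genes of the pathway were counted list by list, in the order ligands, antagonists, receptors, SMADs and targets. None of them was called between the untreated genotypes. The list counts stand against shares of all tested genes of 14.9% called higher and 7.61% lower with DSS in Tmem173fl/fl mice, 1.48% and 0.597% in Tmem173iΔmye mice, 1.99% lower between colitic genotypes, and 1.61% with a lower interaction. Of 14 tested further BMP and GDF genes, 7 were called higher with DSS in Tmem173fl/fl mice (median log2 fold change of the list 1.12) and 2 in Tmem173iΔmye mice (median 0.64). With 2 genes that reached the floor of 3 counts taken at their bound, the median in Tmem173iΔmye mice was 0.19. Bmp3 rose by 2.54 (SE 0.27, edgeR adjusted p = 6.86e-05) and 1.72 (SE 0.29, adjusted p = 0.0165) on the log2 scale. Bmp1, which despite its name encodes a procollagen protease, rose by 2.86 (SE 0.16, edgeR adjusted p = 1.62e-06) and 1.09 (SE 0.24, adjusted p = 0.0497). Between colitic genotypes 2 of the 14 were lower, Gdf7 (log2 difference -2.32) and Bmp1 (-1.68). Bmp1 was the only one of them with a called interaction (-1.69, SE 0.28, edgeR adjusted p = 0.00882), made in all 12 fits that left out 1 library.

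Of 13 further tested antagonist and binding-protein genes, 10 were called higher with DSS in Tmem173fl/fl mice (median 2.12) and 4 in Tmem173iΔmye mice (median 0.64). Chrdl2, a chordin-like relative of Chrdl1, rose by 4.97 (SE 0.30, edgeR adjusted p = 2.54e-06) and 3.98 (SE 0.28, adjusted p = 0.000348) on the log2 scale, with the call made in all 6 fits without 1 library in each genotype. Bmper, a secreted BMP-binding protein gene, rose by 4.34 and 2.58. Between colitic genotypes 5 of the 13 were lower (median -0.75), among them Fst, the gene of the activin antagonist follistatin (-2.34, SE 0.39, edgeR adjusted p = 0.0250) and Bmper (-1.74, SE 0.21, adjusted p = 0.0124). The interaction was called in 4, among them Nbl1 (-1.85, SE 0.28, edgeR adjusted p = 0.00603), and Fst (-2.59, SE 0.61, adjusted p = 0.0393).

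Of 5 further tested activin and TGF-β ligand genes, 3 were called higher with DSS in Tmem173fl/fl mice (median 1.66), 1 in Tmem173iΔmye mice (median 0.35), and 2 were lower between colitic genotypes (median -1.11). Inhbb, the activin βB subunit gene, went from 1.04 ± 0.24 to 51.6 ± 3.12 CPM (SD, n = 3) in Tmem173fl/fl mice (log2 fold change 5.71, SE 0.21, edgeR adjusted p = 4.23e-07). In Tmem173iΔmye mice it went from 1.06 ± 0.45 to 9.83 ± 2.89 CPM (log2 fold change 3.20, SE 0.43, edgeR adjusted p = 0.00651). It was lower in colitic Tmem173iΔmye mice by -2.40 (SE 0.25, edgeR adjusted p = 0.00899) in all 6 fits without 1 library, and its interaction was -2.44 (SE 0.45, adjusted p = 0.0134) in all 12. Inhbb and the member Inhba thus had called interactions of the same sign. Tgfb3, another TGF-β ligand gene, was lower between colitic genotypes by -1.11 (SE 0.24, edgeR adjusted p = 0.0475).

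Of the receptors, 4 of 9 BMP receptor and co-receptor genes were called higher with DSS in Tmem173fl/fl mice (median 0.85), against 14.9% of all tested genes, and none in any other comparison. Eng, the endothelial co-receptor gene, rose by 2.43 (SE 0.17, edgeR adjusted p = 6.41e-06). Of 7 TGF-β and activin receptor genes, 3 were called higher in Tmem173fl/fl mice (median 0.76) and 1 in Tmem173iΔmye mice (median 0.15). Tgfbr3, which encodes betaglycan, rose by 3.27 (SE 0.18, edgeR adjusted p = 1.75e-06) and 2.06 (SE 0.22, adjusted p = 0.00212). It was the only gene of both receptor lists called lower between colitic genotypes (-1.15, SE 0.21, edgeR adjusted p = 0.0291).

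Latency and activation genes, whose products store TGF-β in the matrix or release it, were called higher in 9 of 12 in Tmem173fl/fl mice (median 1.74) and in 1 of 12, Thbs1, in Tmem173iΔmye mice (median 1.02). Between colitic genotypes 4 of the 12 were lower (median -0.75). Thbs1, which encodes thrombospondin 1, rose by 3.64 (SE 0.27, edgeR adjusted p = 7.88e-06) and 1.90 (SE 0.27, adjusted p = 0.00895). Lrrc32, whose product GARP tethers latent TGF-β on cell surfaces, rose by 3.15 (SE 0.15, edgeR adjusted p = 9.43e-07) in Tmem173fl/fl mice and was lower between colitic genotypes by -1.68 (SE 0.31, adjusted p = 0.0311).

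None of the 10 genes of the SMAD list, which also holds Smurf1 and Smurf2, was called with DSS in Tmem173fl/fl mice (median -0.01). In Tmem173iΔmye mice 1, the inhibitory Smad6, fell by 1.41 on the log2 scale (SE 0.22, edgeR adjusted p = 0.0137). Of 10 tested genes listed here as BMP targets, not all of them specific to BMP, 2 were called higher and 2 lower in Tmem173fl/fl mice (median -0.58). Among all tested genes 14.9% and 7.61% were. In Tmem173iΔmye mice 0 were called higher and 2 lower, Hhip and Smad6 (median -0.77), where 1.48% and 0.597% of all tested genes were. Id1, a classical BMP target encoding an inhibitor of DNA binding, went from 162 ± 35.0 to 21.6 ± 7.26 CPM (SD, n = 3) in Tmem173fl/fl mice, or -2.84 on the log2 scale (SE 0.27, edgeR adjusted p = 3.41e-05). Hhip, a Hedgehog-binding protein gene, fell by 1.74 in Tmem173fl/fl and by 1.57 in Tmem173iΔmye mice. Atoh8 rose by 1.12 in Tmem173fl/fl mice, and Msx1, which had at most 3 counts in each untreated library, was also called higher. No gene of this list differed between colitic genotypes by the test or had a called interaction.

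Of 13 TGF-β target genes, 8 were called higher with DSS in Tmem173fl/fl mice (median 1.08) and 2 in Tmem173iΔmye mice (median 0.82). Timp1, a metalloproteinase inhibitor gene, went from 1.403 ± 0.824 to 55.6 ± 21.5 CPM (SD, n = 3) in Tmem173fl/fl mice (log2 fold change 5.37, SE 0.47, edgeR adjusted p = 2.20e-05). In Tmem173iΔmye mice it went from 3.18 ± 2.40 to 15.5 ± 3.94 CPM (log2 fold change 2.28, SE 0.49, edgeR adjusted p = 0.0430). Between colitic genotypes 3 of the 13 were lower (median -0.31), with Timp1 at -1.84 (SE 0.34, edgeR adjusted p = 0.0311). Its interaction was -3.02 (SE 0.74, edgeR adjusted p = 0.0462).

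Of 16 tested Wnt-related genes of the crypt niche, 12 were called higher with DSS in Tmem173fl/fl mice (median 1.92), 2 in Tmem173iΔmye mice (median 0.90), and 5 were lower between colitic genotypes (median -0.99). Sfrp1, a secreted Wnt inhibitor gene, rose by 3.24 (SE 0.17, edgeR adjusted p = 1.22e-06) and 1.74 (SE 0.22, adjusted p = 0.00558). Rspo3, whose product enhances Wnt signalling in crypt stem cells, rose by 2.13 (SE 0.32, edgeR adjusted p = 0.0113) in Tmem173iΔmye mice. Foxl1, a marker of subepithelial telocytes, was lower between colitic genotypes by -2.29 (SE 0.33, edgeR adjusted p = 0.0167), and Rspo1 by -1.79 (SE 0.31, adjusted p = 0.0270). Some genes stand in more than 1 of these lists. Many of these calls rested on all libraries being present. Between colitic genotypes, of the 6 fits without 1 library, 1 called Gdf7, Tgfb3 or Tgfbr3, 2 called Lrrc32, Timp1 or Rspo1, 3 called Foxl1 or Fst and 4 called Bmp1 or Bmper. With DSS in Tmem173iΔmye mice 1 of 6 called Hhip, 2 called Bmp1, Bmper or Timp1, 3 called Bmp3, Smad6, Rspo3, Sfrp1 or Thbs1 and 4 called Inhbb. Atoh8 in Tmem173fl/fl mice was called in 2 of 6, and the interactions of Fst and Timp1 in 4 and 3 of 12.

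On GRCm38 the members lie at chr2:133552159-133562885 (Bmp2, plus strand), chr14:46383520-46390669 (Bmp4, minus), chr9:75775364-75900310 (Bmp5, plus), chr2:172868012-172940321 (Bmp7, minus) and chr2:113746164-113758646 (Grem1, minus). The others lie at chrX:143285674-143394262 (Chrdl1, minus), chr11:89300638-89302332 (Nog, minus), chr13:16011851-16031621 (Inhba, plus) and chr7:25687002-25705077 (Tgfb1, plus). All 9 are protein-coding and match the GENCODE vM21 coordinates. Bmp4, Bmp5 and Inhba overlap other annotated genes. Bmp4 overlaps the antisense Gm15222, with 8 to 36 counts in untreated, 71 to 130 in colitic Tmem173fl/fl and 11 to 39 in colitic Tmem173iΔmye libraries. Inhba overlaps B230303A05Rik and Gm48444 (0 to 19 counts), and Bmp5 overlaps Gm26903 (0 to 8 counts). Whether strand was used in counting was not given in the sources used here, so reads of a gene and its antisense partner cannot be told apart.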

How the data were processed

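Whole-colon RNA from 12 mice was sequenced by a service company after polyA selection. The submitters' processing notes name CASAVA 1.8, fastp, HISAT2 2.0.5, featureCounts 1.5.0-p3, DESeq2 1.20.0 and GRCm38/mm10. The authors deposited whole-number counts per gene and library and FPKM values, which equal counts over gene length and library total, divided by a constant per library. A further 25 columns of the authors' group means and comparisons were not used. Counts were tested with edgeR 4.0.16 quasi-likelihood fits (R 4.3.3, TMM scaling) on the 24102 genes that reached 0.1 FPKM in 3 or more libraries. A pairwise fit held only the groups compared, and the interaction held all 12 libraries. P-values were adjusted by Benjamini-Hochberg over all tested genes. A standard error (SE) is the log2 fold change over the square root of F. CPM used TMM-scaled library totals. Limma 3.58.1 on log2(FPKM + 0.1), DESeq2 1.42.0 and other settings were alternatives, and the fits were tested on simulated data.

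Groups came from the sample titles. The 9 members were described in every comparison, between untreated genotypes mostly by their range. From each pathway list at most 2 called rises and 2 called falls were named. Likeness used genes with a mean FPKM of at least 1. The members and lists were chosen with earlier results of these data known. The depth limits precision at low counts, and Nog was the member of lowest CPM. Promoters came from RefSeq, with 5 of the 9 members matched by symbol. Some results on a gene of the target list are not reported here.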

Additional observations from a re-analysis of the deposited data

Results flagged for a closer look

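The DSS responses of 3 members differed between genotypes in the edgeR interaction over all 12 libraries. The interaction was -1.74 for Bmp4 (adjusted p = 0.0324), -2.505 for Bmp7 (adjusted p = 0.0337) and -2.843 for Inhba (adjusted p = 0.0207), on the log2 scale. Of the 12 fits without 1 library, 3 called Bmp4, 3 called Bmp7 and 9 called Inhba. In each gene the colitic Tmem173fl/fl libraries were above the untreated ones, and the response in Tmem173iΔmye mice was smaller. The fibroblast marker level moved in the same order, and 4 of the 10 fibroblast markers had a called lower interaction. Its part in these differences was not tested.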

How the results depend on the processing

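Of 720 single-member values under another setting, 605 kept their direction and side of the threshold, 28 gained a call, 49 lost it and 38 changed sign. The cause was not tested. For DSS in Tmem173fl/fl mice the 6 calls (22.5%) were made under every setting with more than 1 library in each group (17.03% to 35.45%). The setting with low pancreas marker level held a single colitic library and so no spread of that group. The share of all tested genes called moved with the setting and is given in brackets. For DSS in Tmem173iΔmye mice, where 2 members were called (2.08%), the count was 4 with DESeq2 at the study's threshold of unadjusted p (8.18%), 1 with limma (0.257%), 0 with only libraries of low pancreas marker level, and 1 to 3 without 1 library at a time (0.212% to 6.10%). Between colitic genotypes, with 3 called (2.81%), it was 5 with DESeq2 at either threshold (6.72% and 9.73%), 5 in 1 fit of all 12 libraries (6.19%), 0 with limma (0.581%), 0 with libraries of low pancreas marker level, and 0 to 4 without 1 library at a time (0.112% to 6.61%), 0 being reached without colitic Tmem173fl/fl replicate 1 or 3 or colitic Tmem173iΔmye replicate 2. For the interaction, with 3 called (2.55%), it was 5 with no filter on low values (3.69%), 5 with DESeq2 (5.66%), 6 with DESeq2 at the study's threshold (10.84%), 1 with libraries of male pattern (0.834%), 0 with libraries of low pancreas marker level, and 0 to 5 without 1 library at a time (1.11% to 7.17%), 0 being reached without untreated Tmem173fl/fl replicate 2 or 3 or untreated Tmem173iΔmye replicate 1.

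The values that changed sign were those of members that had not passed the test. With limma, Bmp2 (0.005134) and Bmp4 (-0.00512) did so for DSS in Tmem173iΔmye mice, and Bmp7 between untreated genotypes (0.02707). With libraries of male pattern, Bmp2 (0.09692) and Bmp5 (0.2304) did so for DSS in Tmem173iΔmye mice, Chrdl1 (0.194) and Nog (-0.2077) between untreated genotypes, and Chrdl1 between colitic genotypes (-0.0251) and in the interaction (-0.2349). With libraries of low pancreas marker level, these were Bmp4 (-0.3189) and Tgfb1 (-0.03876) for DSS in Tmem173iΔmye mice and Chrdl1 (0.03666) between untreated genotypes. The restrictions to male pattern and to low pancreas marker level were chosen after seeing the data. The lone colitic Tmem173fl/fl library that the latter leaves is assumed to vary like the others. Without 1 library at a time, for DSS in Tmem173iΔmye mice, the log2 difference ran over these ranges: Bmp2 -0.2495 to 0.2026, Bmp4 -0.2888 to 0.3778, Bmp5 -0.4845 to 0.2436, Nog -0.09993 to 0.6643. Without 1 library at a time, between untreated genotypes, the log2 difference ran over these ranges: Bmp2 -0.446 to 0.2072, Bmp4 -0.1941 to 0.08417, Bmp5 -0.1119 to 0.1698, Bmp7 -0.3136 to 0.2074, Grem1 -0.04416 to 0.2658, Chrdl1 -0.3029 to 0.1436, Nog -0.1748 to 0.2865, Inhba -0.286 to 0.1007, Tgfb1 -0.1906 to 0.1393. Without 1 library at a time, between colitic genotypes, the log2 difference ran over these ranges: Chrdl1 -0.0251 to 0.8029.

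Same-numbered libraries of different groups did not deviate together (correlations of deviations from -0.0999 to 0.109), so the numbers were not taken as pairs. With the replicate number as a block the members called were 6 for DSS in Tmem173fl/fl mice (20.49%), 3 for DSS in Tmem173iΔmye mice (5.68%), 0 between the untreated (0.39%, or 94 genes) and 4 between the colitic genotypes (3.52%), and 4 in the interaction (2.45%), the added calls being Bmp7 in Tmem173iΔmye mice and Bmp5 between colitic genotypes (adjusted p = 0.0232) and in the interaction (0.0270), and the sign changed for Bmp2 (0.08373) and Bmp5 (0.2219) in Tmem173iΔmye mice, Bmp7 between untreated genotypes (0.02515) and Chrdl1 between colitic genotypes (-0.1794). Nog was the member of lowest CPM, and whether depth limited its result was not tested.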
